A study of Daphnia magna with 36 samples.

Results

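The probes described here are 150 of the 7680 on a Daphnia magna array whose log2 ratios between exposed and unexposed animals stood away from 0 with one sign under both ZnO nanoparticles (ZnO NP) and SiO nanoparticles (SiO NP) and near 0, by the median, under the zinc salt ZnSO4, all at the LC25. They were found from the measured ratios themselves. Arrays of one exposure were averaged, the median over exposures was taken for each probe in each LC25 group, and 5664 probes with values in at least 3 exposures of all 3 groups were eligible. A probe qualified with a median of 0.2 or more in size and one sign under both particles and under 0.2 in size under ZnSO4. Of the 477 that qualified, the 150 with the largest value of the weaker particle median were kept: 94 with positive ratios (the positive members) and 56 with negative ratios (the negative members).

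Each array set RNA of adult females, 10 days old and pooled by 16, after 24 h of exposure at 25 °C against RNA of unexposed animals from the same laboratory culture. At 1/10 of the LC50 the water held 2.2 mg/L of ZnO NP, 0.13 mg/L of ZnSO4 or 1.4 mg/L of SiO NP, and at the LC25 it held 9.0, 0.91 or 5.1 mg/L in that order. The silica particle is SiO NP in most labels and SiO2 in the titles of its lower level. LC25 and LC50 are concentrations that kill 25% and 50% of the animals, so levels matched in toxicity and not in mass. The 6 arrays of a group came from 4 separate exposures with ZnO NP at either level, from 3 (lower level) or 4 (LC25) with SiO NP, and from 3 or 5 with ZnSO4. The labels also differ in dye. With both particles at the LC25, exposures measured on a single array had exposed RNA in Cy5. With ZnO NP at the lower level they had it in Cy3. Single arrays of ZnSO4 at the LC25 held either orientation, and the other lower-level groups held only pairs of arrays with the dyes swapped. Dye and level were therefore not balanced. The groups differ in nothing else that the labels give, and whether unexposed RNA was shared between groups is not stated.

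Daphnia magna is a freshwater water flea that filters particles from the water and is a standard animal of toxicity testing. Zinc is an essential metal that becomes toxic in excess. ZnO particles partly dissolve and release zinc ions, so a zinc salt serves as the comparison for the dissolved metal, whereas silica particles carry no zinc and serve as a comparison for particles as such. The comparison of both particles with the salt asks which ratios the 2 particles have in common that dissolved zinc does not give.

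The files do not pair probes with genes (0 of the probe identifiers matched the gene table for the species), so no function can be given to any member, and probes are named by their plate position on the array. Nor do they say which RNA is the numerator of a ratio, so members are called positive or negative and not induced or repressed. Turning all signs would exchange both sets. Because whole animals were measured, fewer cells of a type and less RNA per cell cannot be told apart. Between 46.7% and 90.5% of the probes had a value on any one of the 36 arrays, and all 150 members had values in every LC25 group. At the lower level 3 members had no value under ZnO NP, 4 under SiO NP and 3 under ZnSO4.

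The steps of the choice show how common each condition was. A median of 0.2 or more in size was met by 2364 eligible probes under ZnO NP (41.7%) and by 2055 under SiO NP (36.3%), and 3679 (65.0%) were under 0.2 with ZnSO4. Both particles passed the limit in 986 probes, with one sign in 822 and opposite signs in 164. Among the 822, ZnSO4 passed the limit too in 345. By sign, 20.7% of eligible probes were at or over 0.2 and 21% at or under -0.2 with ZnO NP, 18.9% and 17.4% with SiO NP, and 15.4% and 19.6% with ZnSO4. The opposite-sign probes with ZnSO4 under the limit numbered 90, against 477 with one sign. All of these counts come from the values that chose the members and are a description.

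The limits cut through a continuous distribution. The last member had medians of 0.2854 under ZnO NP and 0.34 under SiO NP, and the first probe left out had -0.36 and -0.2853. At the salt limit, the closest member had a ZnSO4 median of -0.1997 and the closest probe outside it -0.2020. At the size limit, the weakest probe that qualified had a SiO NP median of -0.20001 and the first under it -0.1997. Across the members the weaker of both particle medians ran from 0.285 to 0.789, with a median of 0.335.

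At the LC25 the positive members had a median ratio of 0.41 under ZnO NP (range over members 0.29 to 1.11) and of 0.35 under SiO NP (0.29 to 0.68). The negative members stood at -0.42 under ZnO NP (-1.16 to -0.29) and at -0.35 under SiO NP (-0.79 to -0.29). The distance from 0 is what the rule asked for; the spread between exposures was not. The SD between exposures of a typical positive member was 0.30 under ZnO NP and 0.23 under SiO NP, and that of a typical negative member was 0.30 and 0.29. In all 4 cases the SD was smaller than the distance of the set's median from 0. Because that distance was chosen to be large, the comparison is no measure of how reliable the shift is.

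Under ZnO NP at the LC25 the median of the positive members was 0.29, 0.55, 0.64 and 0.17 in exposures 1 to 4. Under SiO NP it was 0.30, 0.30, 0.37 and 0.50. All 8 exposures lay above 0, and the ZnO NP exposures differed more among themselves (SD of the exposure medians 0.217) than the SiO NP exposures (0.0922). The negative members had medians of -0.50, -0.35, -0.40 and -0.49 under ZnO NP and of -0.56, -0.29, -0.23 and -0.40 under SiO NP. In ZnO NP exposure 4 only 27 of the 56 negative members had a value, and 3557 of the eligible probes.

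Single members were less even than these medians. One sign in every valued exposure of both particle groups was found for 40 of 94 positive members and 21 of 56 negative members. Among eligible probes 9.15% had one sign throughout. The rule asked for large medians of one sign over these same exposures, so a higher share among members was favoured in advance. The remaining 54 positive and 35 negative members had at least 1 particle exposure of the opposite sign. In the fit across all probes, which is a description here because the rule used this contrast, 4 positive and 3 negative members passed an adjusted p of 0.05 under ZnO NP at the LC25, where 1.09% of all probes tested passed (60 of 5495). At an unadjusted p under 0.05 there were 61 positive and 23 negative members in the direction of the rule (9.26% and 6.62% of all probes tested). Under ZnSO4 at the LC25 no member passed the adjusted threshold, where 0.491% of all probes did. No member passed under SiO NP at the LC25, where 0% of all probes tested did by limma, and 42 positive and 21 negative members had an unadjusted p under 0.05 in the direction of the rule (5.35% and 4.29% of all probes tested).

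The probes with the strongest weaker median show both kinds of member. P4DG3, a positive member, had ratios of 0.57, 0.53 and 0.30 in ZnO NP exposures 2 to 4 and of 0.05, 0.71, 0.47 and 0.69 in the SiO NP exposures. Its values in the 5 ZnSO4 exposures were 0.38, -0.28, 0.85, -0.11 and -0.63. All its particle values were above 0, and its salt values spanned them on both sides.

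P11BB4, also positive, had 0.36, 0.84, 0.73 and 0.15 under ZnO NP and 0.57, 0.13, 0.93 and 0.49 under SiO NP. Under ZnSO4 it had -0.75, -0.20, 0.66, 0.00 and -0.51. The particle exposures lay above 0 throughout, and the highest salt exposure overlapped them.

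The strongest negative members were erratic. A1F21 had -1.56, 0.04 and -1.08 in ZnO NP exposures 1 to 3 and -1.59, 0.01, 0.22 and -1.60 under SiO NP. A4G3 had -1.16, 1.51 and -2.32 in the same ZnO NP exposures and -0.81, -0.67, 1.05 and -0.46 under SiO NP. Both changed sign within each particle group, and in ZnO NP exposures 2 and 3 each had a value on only 1 array of the dye-swapped pair. For all members together, 122 of the 746 values from dye-swapped exposures at the LC25 (16.4%) came from only 1 of the 2 arrays.

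The salt part of the description held for the median over exposures and not for single exposures. The positive members had medians of -0.21, -0.10, 0.46, -0.07 and -0.48 in ZnSO4 exposures 1 to 5 at the LC25. In exposure 3, 90 of 94 were at or over 0.2, where 24.1% of eligible probes were. In exposure 5, 89 of the 93 with a value were at or under -0.2, where 38.6% of eligible probes were. The group median of -0.09 therefore came from exposures on both sides of it, and the SD of the 5 exposure medians was 0.341.

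The positive members went from exposure 3 to exposure 5 together. The ratio in exposure 3 minus that in exposure 5 had a median of 0.95 over positive members and was above 0 in 92 of 93. Over all eligible probes the same difference had a median of 0.05, over those whose identifier begins with P 0.19, and over those beginning with A -0.34. Both exposures were single arrays, with exposed RNA in Cy5 in exposure 3 and in Cy3 in exposure 5, so exposure and dye cannot be told apart there. In exposure 4, a dye-swapped pair, the positive members had -0.21 with exposed RNA in Cy5 and 0.08 with it in Cy3.

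The negative members were closer to 0 in the salt, with medians of 0.13, 0.04, -0.12, -0.07 and 0.02 over the 5 exposures. Their typical SD between salt exposures was nevertheless 0.36, close to the 0.40 of the positive members and to the 0.32 of eligible probes. Single negative members were thus high in some salt exposures and low in others without moving as a block. A shift under particles and not under salt is thus a statement on the median over exposures, and single salt exposures did not bear it out for the positive members.

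Members of one sign mostly shared their place in the identifier scheme. Identifiers begin with A (7 plates of 384 wells) or P (52 plates of 96 wells). Of the 94 positive members, 93 were P probes (98.9%), and of the 56 negative members, 44 were A probes (78.6%), while 74.1% of eligible probes were P and 25.9% were A. The 477 qualifying probes divided in the same way, with 263 of 275 positive ones in P and 131 of 202 negative ones in A. What the letters stand for is not stated in the labels or files.

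Under both particles the median of all A probes was below 0, like the negative members. That of all P probes was above 0, like the positive members, although 20 of the 52 P plates were below 0 under each particle. The median of all A probes was -0.12 under ZnO NP, -0.12 under SiO NP and 0.07 under ZnSO4 at the LC25, and that of all P probes was 0.03, 0.04 and -0.08. All 7 A plates had medians below 0 under both particles and above 0 under ZnSO4. All 52 P plates had medians below 0 under ZnSO4 (-0.14 to -0.01), and 32 of them were above 0 under each particle, with ranges of -0.10 to 0.15 under ZnO NP and -0.24 to 0.19 under SiO NP. At the lower level the A probes stood at 0.04, 0.01 and -0.04 under ZnO NP, SiO NP and ZnSO4, and the P probes at 0.00, 0.00 and 0.04. With exposed RNA in Cy5 at that level, the A median minus the P median ran from -0.31 to 0.01 over arrays. With it in Cy3 the gap ran from -0.06 to 0.23. Under the particles at the LC25 it ran from -0.29 to -0.01 in Cy5 and from -0.37 to 0.13 in Cy3. The part of dye in this gap was not tested.

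The members were also uneven within each letter. Plate P11C held 8 positive members, 8.60% of its eligible probes, with plate medians of 0.11 under ZnO NP and 0.14 under SiO NP. No positive member came from 20 of the 52 P plates. Plate A4 held 12 negative members, 6.42% of its eligible probes, with plate medians of -0.12 and -0.17.

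The rule placed the members away from the other probes of their letter. As a description of that choice, positive P members exceeded the median of other eligible P probes by 0.39 under ZnO NP and by 0.31 under SiO NP. Negative A members lay at -0.32 and -0.24 relative to other A probes. With each plate's median subtracted from every array, the positive members kept medians of 0.32 and 0.25, the negative members -0.33 and -0.24, and 89 of the 150 still met all conditions. Of the probes that qualified after that subtraction, 37 of 196 positive ones and 25 of 132 negative ones were A probes. Before it, 12 of 275 positive ones and 131 of 202 negative ones were, beside 25.9% of eligible probes. The division of the signs by letter was thus not there any more. With only the median of each letter subtracted, 118 of the 150 still met all conditions, 89 of the 94 positive and 29 of the 56 negative members. Both subtractions also take out any change shared by the genes of a plate or letter, and the part of plate position in the members' ratios was not tested.

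The arrays of dye-swapped pairs gave 2 readings of one exposure. In ZnO NP exposure 2 at the LC25 the positive members had a median of 0.60 with exposed RNA in Cy5 and of 0.53 with it in Cy3, and in exposure 3 they had 0.72 and 0.60. The negative members had -0.40 and -0.39, then -0.56 and -0.38. The members were chosen on the average of these arrays, so a shared sign is no independent reading.

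Under SiO NP the dyes differed. In exposure 1 the positive members had 0.18 in Cy5 and 0.38 in Cy3, and the negative members -0.80 and -0.19. In exposure 3 the positive members had -0.09 in Cy5 and 0.86 in Cy3, so the positive value of that exposure came from 1 of its 2 arrays. The negative members there had -0.07 and -0.29. Over all probes valued on both arrays, the correlation between both readings was 0.57 and 0.71 for the ZnO NP pairs and -0.26 and 0.17 for the SiO NP pairs, as a description across probes that share the arrays.

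Choosing members on one dye and reading them on the other keeps the arrays of choice and reading apart. Both arrays of a pair came from the same exposure, so this is a second reading of that exposure and not of another one. Of the arrays with exposed RNA in Cy5 alone, 4195 probes were eligible and 336 qualified; the strongest 150 were 64 positive and 86 negative. On the Cy3 arrays the positive ones read 0.32 and 0.51 in ZnO NP exposures 2 and 3, and the negative ones -0.09 and -0.22. In SiO NP exposure 3 they read 0.52 and -0.32, although the Cy5 array of that exposure gave 0.02 and -0.06. In SiO NP exposure 1 they read -0.10 and 0.11, opposite in sign to the 0.42 and -0.62 of the Cy5 array. Both signs were thus kept on the other dye in both ZnO NP pairs and in SiO NP exposure 3, and neither was kept in SiO NP exposure 1. In the ZnSO4 pair, exposure 4, the positive ones read -0.17 on the Cy5 array and 0.18 on the Cy3 array, and the negative ones -0.14 and -0.02.

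The rule was also applied with each LC25 exposure left out in turn, and the probes so chosen were read in the exposure that had no part in their choice. Positive ones read 0.11, 0.40, 0.63 and 0.13 in ZnO NP exposures 1 to 4, a mean of 0.316 ± 0.246 (SD, n = 4). In the SiO NP exposures they read 0.16, 0.22, 0.27 and 0.42, a mean of 0.268 ± 0.110 (SD, n = 4). All 8 values were above 0 and most were smaller than the median in the exposures used, which ran from 0.34 to 0.47.

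Negative ones were weaker when read in this way. They gave -0.14, -0.04, -0.13 and -0.25 under ZnO NP, a mean of -0.144 ± 0.0867 (SD, n = 4), and -0.09, -0.11, 0.00 and -0.22 under SiO NP, a mean of -0.107 ± 0.0925 (SD, n = 4), against -0.33 to -0.45 in the exposures used. Eligible probes of the A plates alone had medians between -0.24 and -0.03 in the same exposures, so the left-out negative values were of the size of the A plates at large. In the left-out ZnSO4 exposures the positive ones read -0.32, -0.19, 0.41, -0.07 and -0.48, and the negative ones 0.02, 0.00, -0.14, -0.09 and 0.03. The negative reading in ZnSO4 exposure 3 was of the size of the left-out particle means. The positive reading in that exposure, 0.41, was above the left-out particle means of the positive ones (0.316 and 0.268). In ZnSO4 exposure 5 it was on the other side of 0. Between 282 and 503 probes qualified without 1 exposure, and 76 to 121 of the 150 strongest were among the 150 members. The fewest qualified without ZnO NP exposure 3 (282), ZnO NP exposure 2 (302) and ZnSO4 exposure 3 (319).

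The exposures at 1/10 LC50 took no part in the rule and could be tested. Over all arrays, the set medians lay within 0.08 of 0 at that level. The positive members had a median of 0.01 under ZnO NP, -0.01 under SiO NP and 0.05 under ZnSO4, and the negative members -0.05, -0.01 and -0.08, beside 0.01, 0.00 and 0.02 for all eligible probes. On the arrays with exposed RNA in Cy5 alone, the same members read 0.10 (positive) and -0.19 (negative) under ZnO NP, 0.01 and -0.07 under SiO NP, and 0.03 and -0.12 under ZnSO4. On the Cy3 arrays, by exposure, the negative members read 0.08, -0.08, 0.03 and -0.02 under ZnO NP. They read 0.12, 0.22 and 0.08 under SiO NP and -0.03, 0.16 and 0.05 under ZnSO4. The positive members read -0.14, 0.00, -0.17 and 0.15 there under ZnO NP. Under SiO NP they read -0.05, 0.03 and -0.13, and under ZnSO4 0.06, -0.01 and 0.19. The part of dye in these readings was not tested. A median of 0.2 or more was reached by 3 of 93 positive members under ZnO NP, 1 of 93 under SiO NP and 8 of 92 under ZnSO4, near or below the 9.25%, 4.4% and 8.56% of eligible probes. A median of -0.2 or less was reached by 14 of 54 negative members under ZnO NP (25.9%), 7 of 53 under SiO NP (13.2%) and 15 of 55 under ZnSO4 (27.3%), against 8.42%, 5.91% and 7.94% of eligible probes. Negative members at or over 0.2 numbered 6 (11.1%), 5 (9.43%) and 6 (10.9%). Under ZnO NP and ZnSO4 these shares were nearer the background than those at or under -0.2. Most negative members were A probes, and the share of A probes at these limits was not counted. A typical negative member also varied more between exposures than a typical eligible probe. The SDs were 0.29, 0.24 and 0.28 against 0.21, 0.14 and 0.17 under ZnO NP, SiO NP and ZnSO4. By limma's fit over all probes, 92 positive and 53 negative members were tested. No member passed an adjusted p of 0.05 under ZnO NP, where 0% of all 5495 probes did, under SiO NP, where 0% did, or under ZnSO4, where 0.0182% did (1 probe).

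The counts at an unadjusted p under 0.05 were as small for the positive members. One of 92 passed with a positive ratio under ZnO NP (2.49% of all probes tested) and none with a negative one (2.29%). None passed in either direction under SiO NP (0.819%) or ZnSO4 (2.13%). Among the 53 negative members, 6 passed with a negative ratio under ZnO NP (11.3%, against 2.29% of all probes and 3.34% of A probes) and 1 with a positive ratio. Under ZnSO4, 3 of them did with a negative ratio (5.66%, against 1.22% of all probes and 3.74% of A probes), and none under SiO NP. The 95% intervals of a typical member reached 0.32 to 0.37 to either side, so ratios of the size seen at the LC25 would lie at the edge of what these fits could show for 1 probe.

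The exposures of the lower level were uneven for the positive members under ZnO NP, with medians of 0.00, 0.03, -0.17 and 0.15. They were nearer 0 under SiO NP, with -0.02, 0.02 and -0.06, and under ZnSO4, with 0.16, 0.02 and 0.00. The negative members had -0.07, -0.11, 0.03 and -0.02 under ZnO NP, -0.10, 0.11 and 0.03 under SiO NP, and -0.18, 0.06 and -0.03 under ZnSO4. The exposure medians of the negative members lay on both sides of 0 in all 3 groups, and those of the positive members did so except under ZnSO4.

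No difference between toxicants at the lower level passed for a member either. The fits of ZnO NP minus ZnSO4, SiO NP minus ZnSO4 and ZnO NP minus SiO NP called 0% of all 5495 probes at an adjusted p of 0.05 each, by limma. At an unadjusted p under 0.05 they called 1.66%, 1.35% and 1.82% of all probes. Of the members, 2 negative ones had such a p with a higher ratio under ZnO NP than under ZnSO4 (0.855% of all probes in that direction), and 3 negative ones with a higher ratio under SiO NP than under ZnSO4 (0.692%). A lower ratio under ZnO NP than under SiO NP was found for 2 negative ones (0.837%). No positive member had such a p in any of these differences. The levels compared share a toxicity of 1/10 LC50 and not a concentration.

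The positive members correlated with each other at the lower level, which the rule did not use. Over the 10 exposures at 1/10 LC50, the Pearson correlation of 2 positive members with values in all of them had a median of 0.299 (86 probes, quartiles 0.0194 to 0.537). Pairs of other eligible P probes had a median of 0.0215 (3802 probes), and pairs from the same plates as the positive members 0.0198. With plate medians subtracted the values were 0.259 for members and -0.0015 for other P probes. Leaving out each exposure in turn gave 0.170 to 0.352 for members, the lowest without ZnO NP exposure 3, and over the 8 dye-swapped exposures alone the median was 0.130 against 0.0193 for other P probes, less than 0.5 of the value with the 2 single-array ZnO NP exposures in. The negative members of the A plates did not share this, with a median of 0.0269 (34 probes) against 0.0600 for other A probes, and positive against negative members had a median of -0.107. All probes share the same arrays, and these correlations are a description.

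The members with the largest ratios at the lower level under ZnO NP, among those valued with one sign in every exposure, were P9CF4 and P12AG10 on the positive side and P13AA7 and A2J19 on the negative side. P9CF4 had 0.21, 0.65, 0.34 and 0.04, a fitted ratio of 0.33 ± 0.256 (SE) with an adjusted p of 0.996. P12AG10 had 0.46, 0.02, 0.09 and 0.08, of which exposure 1 stood apart. A2J19, a negative member, had -0.84, -0.87, -0.42 and -0.18, all below 0, with a fitted ratio of -0.68 ± 0.263 (SE), an unadjusted p of 0.0174 and an adjusted p of 0.973 by limma. P13AA7 had -1.72, -0.11, -0.16 and -3.71, and at the LC25 its ZnO NP values ran from -2.91 to 4.01. Neither P9CF4 nor A2J19 passed the adjusted threshold, and both had values of one sign in every lower ZnO NP exposure because that was the rule for naming them.

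Among members valued with one sign in every lower SiO NP exposure, the largest positive fitted ratios belonged to negative members. A5E2 had 0.19, 0.45 and 0.01 there, opposite in sign to its -0.34, -0.29, -0.07 and -0.17 under ZnO NP. P1AF5 had 0.15, 0.21 and 0.27 under SiO NP and -0.62, -0.98 and -0.11 under ZnSO4. The groups did not overlap for either probe, and the differences did not pass after adjustment, as none of the probes tested did. Both were named for one sign in a lower-level group, which 16.4% to 25.6% of eligible probes had per group. Under the same condition, the largest negative fitted ratios were those of A4G3, with -0.53, -0.25 and -0.74, and of A1F21, with -0.11, -0.51 and -0.42. The LC25 values of A4G3 and A1F21 changed sign between exposures.

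Among positive members valued with one sign in every lower ZnSO4 exposure, the largest fitted ratios were those of P2DE12 and P8CG7. P2DE12 had 0.54, 0.14 and 0.26 under ZnSO4, with a fitted ratio of 0.31 ± 0.155 (SE) and an adjusted p of 1.000 by limma. Its values under ZnO NP at the LC25 were 0.35, 0.52, 0.92 and 0.34 and those under SiO NP at the LC25 were 0.30, -0.15, 0.59 and 0.59. P8CG7 had 0.46, 0.12 and 0.28 under the lower ZnSO4 level and was above 0 in all 3 lower SiO NP exposures too (0.37, 0.06 and 0.11). Under the same condition, the largest negative fitted ratios among all members were those of P1AF5, above, and of A4C3, with -0.92, -0.26 and -0.15.

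How firmly the set is defined depended on the reading of the ratios. If the deposited values are read as Cy5 over Cy3 on every array, 227 probes qualify and 21 of the 150 members are still among them. If they are read as turned to one direction already, as above, centring every array on its median left 146 of the 150 members qualifying and scaling arrays to one spread 142. Using only arrays with exposed RNA in Cy5 left 69. Array pairs of different exposures labelled opposite ways round had a median correlation over all probes of -0.0197, with 16 of 307 under -0.3 and a lowest value of -0.563. Those labelled the same way round had a median of 0.0796, with 5 of 310 under -0.3 and a lowest value of -0.520. The 13 dye-swapped pairs of one exposure are not in these counts. At the LC25 they had 0.57 and 0.71 (ZnO NP), -0.26 and 0.17 (SiO NP) and 0.49 (ZnSO4). At the lower level they had -0.21 and 0.36 (ZnO NP), -0.30, 0.03 and 0.13 (SiO NP) and -0.12, 0.14 and 0.08 (ZnSO4). The direction was not settled by these values.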

How the data were processed

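RNA of whole Daphnia magna was measured on 36 two-colour arrays in 6 groups. The authors deposited one log ratio per probe and array, taken as log2 values; base, numerator, background correction, normalization and spot filter are not given in the sources used here. Array means lay within 0.0209 of 0. Values were taken as turned to one direction across dyes.

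Arrays of one exposure number were averaged (23 exposures: 13 dye-swapped pairs, 10 single arrays), each counted as 1 replicate. Nothing in the labels says that exposures came from separate cultures, so p-values measure the spread between these samples only. The members, lists and tests were chosen with earlier results of these data known.

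The 6 groups were fitted together in limma 3.58.1 (R 4.3.3) with a probe-specific dye term (+1 for Cy5, -1 for Cy3, 0 for a pair) for the 5495 probes valued in at least 2 exposures of every group. Where a pair gave a probe only 1 value, its dye term stayed 0. P-values are two-sided and were adjusted over these probes (Benjamini-Hochberg), with a threshold of 0.05. Contrasts were refitted. The fit was tested on simulated data.

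Named probes were the 2 positive and 2 negative members with the largest weaker particle median and, per lower-level group, the 2 largest fitted ratios of each sign among members valued with one sign in every exposure. Exposures with the same number did not deviate together (51 pairs, median r -0.0185, 17 of them over 0.1), so numbers were not taken as pairs.

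Alternatives covered the filter, centring, spread, plates, the letter of the identifier, dye orientation, dye term, direction, prior, array weights, pairing, the size limit, and each exposure left out. Spot brightness was not analysed here, and the number of arrays limits the precision. Python 3.11.15 was used for the tables.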

Additional observations from a re-analysis of the deposited data

Results flagged for a closer look

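Among the named members, 52 combinations of a probe and a group of 4 or 5 exposures were looked at for a single exposure far from the others. In several the probe had only 3 values, such as P4DG3 under ZnO NP at the LC25, so fewer than 52 held 4 or more. Such an exposure was found in 4, and how many would be found by chance was not counted. P12AG10 stood at 0.46 in ZnO NP exposure 1 at the lower level, with the other 3 exposures between 0.02 and 0.09. P2DE12 stood at 0.49 in ZnO NP exposure 4 of the lower level, against values between -0.05 and 0.03. P1AF5 stood at 0.44 in ZnSO4 exposure 2 at the LC25, against -0.35 to -0.19 in the other 4. P8CG7 stood at -0.43 in ZnO NP exposure 2 at the LC25, against 0.30 to 0.43, and in that exposure it had a value on only 1 array of the pair.

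The members A5E2, P1AF5 and P2DE12 had every exposure of one lower-level group on one side of 0 and every exposure of another group on the other side. The mean of A5E2 under ZnO NP minus that under SiO NP was -0.44, and the fitted difference of -0.51 ± 0.197 (SE) had an unadjusted p of 0.0164 and an adjusted p of 0.999 by limma. For SiO NP minus ZnSO4 the differences were 0.45 for A5E2 (unadjusted p of 0.0389), 0.78 for P1AF5 (0.0118) and -0.36 for P2DE12 (0.116), each with an adjusted p of 1.000 by limma. Each direction was shown by all 3 or 4 exposures of both groups compared, and no difference passed the adjusted threshold. These probes were named for large ratios of one sign in one of the groups compared, so the differences are not independent of that choice. Among eligible probes, one sign in every valued lower-level exposure of a group was not rare. The share was 16.4% under ZnO NP, 23.9% under SiO NP and 25.6% under ZnSO4. The share of all probes with opposite signs between groups was not counted.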

How the results depend on the processing

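With 3 to 5 exposures per group, counts of called probes moved widely. Over the fits that each left out 1 of the 23 exposures, 282 to 503 probes met the rule (477 with all), 2 to 179 were called under ZnO NP at the LC25 (60 with all), 13 to 454 under ZnSO4 at the LC25 (27), 0 to 2 under SiO NP at the LC25 (0), 0 to 3 under ZnO NP (0) and 0 to 4 under ZnSO4 (1) at the lower level, and 0 to 1 for lower ZnO NP minus ZnSO4 (0). The 179 and the 454 both came without ZnSO4 exposure 3, and the 2 without ZnO NP exposure 1 or 2. No member was called at the lower level in any of these fits. The cause was not tested.

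Among other settings, the limit of 0.3 left 178 probes meeting the rule. Leaving out the dye term gave 122 calls under ZnO NP at the LC25. Array weights gave 92 there, 3 under ZnSO4 at the LC25, 86 and 18 under ZnO NP and ZnSO4 at the lower level, 25 for lower ZnO NP minus ZnSO4 and 3 for lower ZnO NP minus SiO NP; 1 member was among them, P1AF5 under lower ZnSO4, at -0.73. All arrays with the exposure as a random block gave 492, 13 and 75 under ZnO NP, SiO NP and ZnSO4 at the LC25 and 19 and 12 under lower ZnO NP and ZnSO4, with no member at the lower level. One spread for all arrays gave 0 under ZnO NP and 2 under ZnSO4 at the LC25. The exposure number as a replicate block gave 43 under ZnSO4 at the LC25 and turned P9CF4 under lower ZnO NP to -0.0453. The 1 call under lower ZnSO4 became 0 with the block, a robust prior, one spread, plate medians, letter medians (chosen after seeing the data), Cy5 arrays only, and Cy5 over Cy3.

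Cy5 arrays only gave 39 calls under ZnO NP at the LC25, moved the lower ZnO NP medians to 0.15 (positive) and -0.15 (negative) for the 150 probes chosen anew on those arrays and turned A5E2 under lower SiO NP to -0.0066. Cy5 over Cy3 gave 2 and 0 calls under ZnO NP and ZnSO4 at the LC25, 227 probes meeting the rule and a positive median of 0.0514 under lower SiO NP. It turned P9CF4 to -0.19, P12AG10 to -0.11 and P13AA7 to 0.68 under lower ZnO NP, A5E2 to -0.22, P1AF5 to -0.0704 and A4G3 to 0.0321 under lower SiO NP, and P2DE12 to -0.0068 and A4C3 to 0.34 under lower ZnSO4. Testing without a filter on missing values covered the same 5495 probes.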
